A study of Mus musculus with 32 samples.

Results

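Fos, Fosb, Jun, Junb, Jund, Egr1, Egr2, Ier2, Atf3 and Dusp1 are immediate early genes or members of the AP-1 family, and their RNAs were examined for binding by the RNA-binding protein IGF2BP3 in MLL-Af4-driven leukemia of the mouse. These 10 genes were taken by symbol from the tables of 26560 genes for Lin- cells and 25887 genes for CD11b+ cells, of which 23620 genes are listed for both, and every one of them was found once in each table. Peaks were assigned to a gene by the Ensembl ID that opens the peak name.

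Lin- cells were lineage-depleted bone marrow cells transduced with a retrovirus that carries MLL-flag-Af4, selected with G418 and grown with cytokines. CD11b+ cells were selected with magnetic beads, according to the protocol from splenic tumors of MLL-Af4 mice, although the names of the CD11b+ eCLIP libraries begin with bm, as do those of Lin- cells, so the tissue of the CD11b+ eCLIP cells is not certain. IGF2BP3 eCLIP, in which RNA crosslinked to a protein is pulled down with an antibody and sequenced, was done on WT cells carrying MLL-Af4 and gave 6 Lin- libraries (3 biological, 3 technical) and 4 CD11b+ libraries (2 biological, 2 technical), each with a size-matched input (smInput). The RNA-seq libraries comprised 3 WT and 3 IGF2BP3 KO (I3KO) libraries of each cell type, and all of these cells carried MLL-Af4. I3KO is a germline deletion of exon 2 of Igf2bp3, so it was not confined to blood cells. The labels do not state which biological library a technical one repeats. The library names agree in their last digit between Lin- biological 1, 2 and 3 and technical 4, 5 and 6, and between CD11b+ biological 1 and 2 and technical 3 and 4. If that digit marks the same cells, a site found in both libraries of such a pair rests on 1 sample. The labels do not say whether biological libraries came from separate mice, and give no age. The input-filtered libraries held 4040 to 10042 peaks in Lin- cells and 7085 to 10054 peaks in CD11b+ cells, and read depth is not known. For RNA-seq, the deposited mean normalized count of a gene pools WT and I3KO, so it has no error, and neither the 2 genotypes nor the loss of Igf2bp3 could be compared from it.

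AP-1 is a dimer of basic leucine zipper proteins, formed by Fos proteins with Jun proteins or by Jun proteins with each other. Immediate early genes are transcribed within minutes of a growth factor, cytokine or stress signal without new protein synthesis, and most of their mRNAs are short-lived. IGF2BP3 is an oncofetal RNA-binding protein with RRM and KH domains that is known to affect the stability, translation and processing of the RNAs it binds.

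The stretches that carry most of what the eCLIP peaks of these genes showed are given here with their sequences, from the GRCm38 (mm10) RefSeq genome, on the strand of the gene. Each is the longest stretch covered by the largest number of libraries at that site, shortened to 30 nt in a UTR. Capitals mark exonic bases at the 3 sites that cross a splice site, and CACA, ACAC or GGAC at the others.
Fos intron 1, CD11b+ cells, chr12:85474538-85474596, plus strand: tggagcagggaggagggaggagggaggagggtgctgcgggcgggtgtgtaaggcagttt
Fos end of intron 3 and start of exon 4, Lin- cells, chr12:85475765-85475827, plus strand: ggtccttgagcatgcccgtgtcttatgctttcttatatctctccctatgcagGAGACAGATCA
Fos end of intron 2 and start of exon 3, Lin- cells, chr12:85475543-85475592, plus strand: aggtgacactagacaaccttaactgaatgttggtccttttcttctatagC
Jund coding sequence near its start, Lin- cells, chr8:70699141-70699185, plus strand: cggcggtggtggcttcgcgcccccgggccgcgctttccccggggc
Jund coding sequence of the leucine zipper, Lin- cells, chr8:70699927-70699998, plus strand: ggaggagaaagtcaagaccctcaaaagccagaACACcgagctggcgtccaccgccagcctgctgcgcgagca
Junb coding sequence of the leucine zipper, Lin- cells, chr8:84977498-84977551, minus strand: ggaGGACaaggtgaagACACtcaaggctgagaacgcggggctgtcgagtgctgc
Dusp1 end of exon 2 and start of intron 2, both cell types, chr17:26507543-26507579, minus strand: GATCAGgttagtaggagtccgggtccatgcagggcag

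In Lin- cells, 7 of the 10 genes had an IGF2BP3 peak in at least 1 library, namely Fos, Jun, Junb, Jund, Egr1, Ier2 and Dusp1. In CD11b+ cells, 5 of 10 had one, and Jun and Junb did not. Among all genes listed, 26.5% had a peak in a Lin- library and 25.6% in a CD11b+ library. Among genes with a mean normalized count of at least 100, these shares were 51.9% in Lin- cells and 47.9% in CD11b+ cells, against 7 of 8 and 5 of 7 of the genes described here. Of the 7 with any peak, 5 had peaks in both cell types and 2 in Lin- cells alone, against 51.1% and 26.7% of the 8963 genes with a peak. Fosb, Egr2 and Atf3 had no peak in any library.

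The libraries of Lin- cells differed widely. The biological Lin- libraries 1, 2 and 3 held 0, 16 and 11 peaks on these genes, and the technical libraries 4, 5 and 6 held 0, 15 and 2. The CD11b+ libraries held 3 and 5 (biological 1 and 2) and 2 and 3 (technical 3 and 4). Per 10000 peaks of a library, this was 15.9 (95% exact binomial interval 9.11 to 25.9) in Lin- biological 2 and 12.7 (6.32 to 22.7) in Lin- biological 3. The CD11b+ biological libraries gave 3.52 (0.726 to 10.3) and 4.97 (1.61 to 11.6) per 10000. For Lin- biological 1, with 0 of 7361 peaks, the upper end of the same exact interval was 5.01 per 10000, and for technical 4, with 0 of 4040, it was 9.13. The limit of 3 counts of the total was 4.08 and 7.43 per 10000. These intervals and limits cover counting error only and treat each peak as an independent draw. Jund gave 8 of the 16 peaks in Lin- biological 2, and several of these touch, so the intervals may be too narrow. All 57 peaks passed the smInput filter, since none of the 10 input libraries had a peak on any of the genes. Over all genes, the filter removed 12.4% to 25.9% of the peaks of a Lin- library and 10.8% to 17.3% of a CD11b+ library. The inputs held few peaks to filter by, 217 to 1808 in Lin- and 1381 to 1885 in CD11b+ cells. That of Lin- technical 5 held 217. Leaving out Lin- biological 2 and technical 5 lowered the Lin- sites, counted after overlapping peaks were merged, from 28 to 11.

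**Figure D1:**
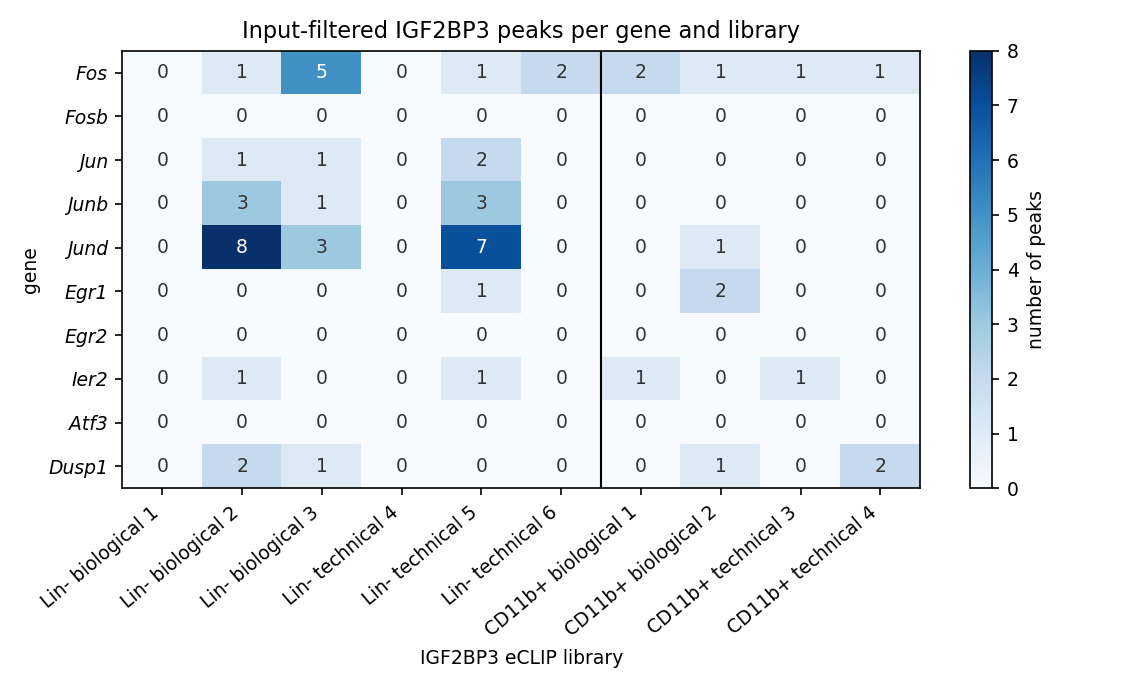
Number of input-filtered IGF2BP3 eCLIP peaks (cell value and color) for each gene (vertical axis) in each library (horizontal axis), with 6 Lin- libraries left of the black line and 4 CD11b+ libraries right of it. Jund reaches 8 peaks in Lin- biological 2, Fos is the gene with a peak in all 4 CD11b+ libraries, and the columns of Lin- biological 1 and Lin- technical 4 are 0.

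Fos, the leucine zipper partner of the Jun proteins (ENSMUSG00000021250, chr12:85473890-85477273, plus strand, 4 exons), had peaks at different places in the 2 cell types. In CD11b+ cells, every library had a peak in the middle of intron 1, at chr12:85474538-85474599 in biological 1, chr12:85474532-85474597 in biological 2, chr12:85474506-85474596 in technical 3 and chr12:85474522-85474615 in technical 4. All 4 peaks share the 59 nt printed above, which hold repeats of GGAGGGA and none of the motifs searched. Of all merged CD11b+ peaks, 10.2% were found in all 4 libraries. By the last digit of the names, biological 1 pairs with technical 3 and biological 2 with technical 4, so these libraries may not be 4 separate samples.

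CLIPper, the peak caller, gave each peak a value that was read as its p, so that a smaller value is a stronger peak. At the intron 1 site this CLIPper value was 3.85e-21 in CD11b+ biological 1, 0.000565 in biological 2, 7.43e-17 in technical 3 and 2.9e-05 in technical 4. In these libraries, 9.45%, 55.0%, 11.8% and 41.8% of all peaks had a value this small. The site thus ranked among the strong peaks in biological 1 and technical 3 and near the middle in biological 2. It lay 319 to 337 nt from the nearest splice site, in an intron of 754 nt, and no Lin- library had a peak there. CD11b+ biological 1 had a second peak at chr12:85475222-85475266, in intron 2 and 35 nt from its start (CLIPper 0.000514).

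In Lin- cells, 8 of the 9 Fos peaks crossed a splice site, and the ninth, in Lin- biological 2 at chr12:85475679-85475687, lay in exon 3, 12 nt from one. Lin- biological 3 held 5 of them, at the start of intron 1 (chr12:85474168-85474211, CLIPper 5.89e-05), the end of intron 1 (chr12:85474887-85474936, CLIPper 0.0114), the end of intron 2 (chr12:85475543-85475595, CLIPper 7.92e-05), the start of intron 3 (chr12:85475686-85475728, CLIPper 1e-06) and the end of intron 3 (chr12:85475758-85475834, CLIPper 1.93e-23). The start of intron 2 was the one intron edge of Fos without a Lin- peak. Lin- technical 5 had a peak at the end of intron 2 (CLIPper 0.0477), and technical 6 had peaks at the start (CLIPper 6.63e-09) and the end (CLIPper 9.4e-08) of intron 3. All crossing peaks but that of technical 5 thus came from Lin- biological 3 and technical 6, whose names have the same last digit. They rest on 1 sample if that digit marks the same cells. The merged site over the edge of exon 3 and intron 3 had a peak in 3 of 6 Lin- libraries, whereas 19.9% of all merged Lin- peaks were found in at least 3. The peak of Lin- biological 2 there did not reach the edge, and the stretch that all 3 libraries shared was 2 nt long. The peaks that crossed this edge came from Lin- biological 3 and technical 6.

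Crossing a splice site was common among Lin- peaks in general. On spliced genes, 47.5% of all merged Lin- peaks crossed one, compared with 10.6% of merged CD11b+ peaks. All 5 merged Fos peaks of Lin- cells did so, and neither of the 2 merged Fos peaks of CD11b+ cells did. None of the Lin- sites of Fos overlapped a CD11b+ site. Over all genes, 25.1% of merged Lin- peaks and 29.7% of merged CD11b+ peaks overlapped one of the other cell type. Intronic bases are removed from the mature mRNA, and all Fos peaks but the one inside exon 3 held such bases.

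Fos had 0, 0.996 and 5.76 peaks per 10000 in Lin- biological 1, 2 and 3, and 2.35 and 0.995 in CD11b+ biological 1 and 2. The values overlapped, with a mean of 2.25 ± 3.08 (SD, n = 3) in Lin- and 1.67 ± 0.956 (SD, n = 2) in CD11b+ cells (p = 0.9, exact permutation test, two-sided). The Fos sites of the 2 cell types shared no base, and the ranges of their peak counts overlapped. Most merged peaks over all genes likewise overlapped none of the other cell type.

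**Figure D2:**
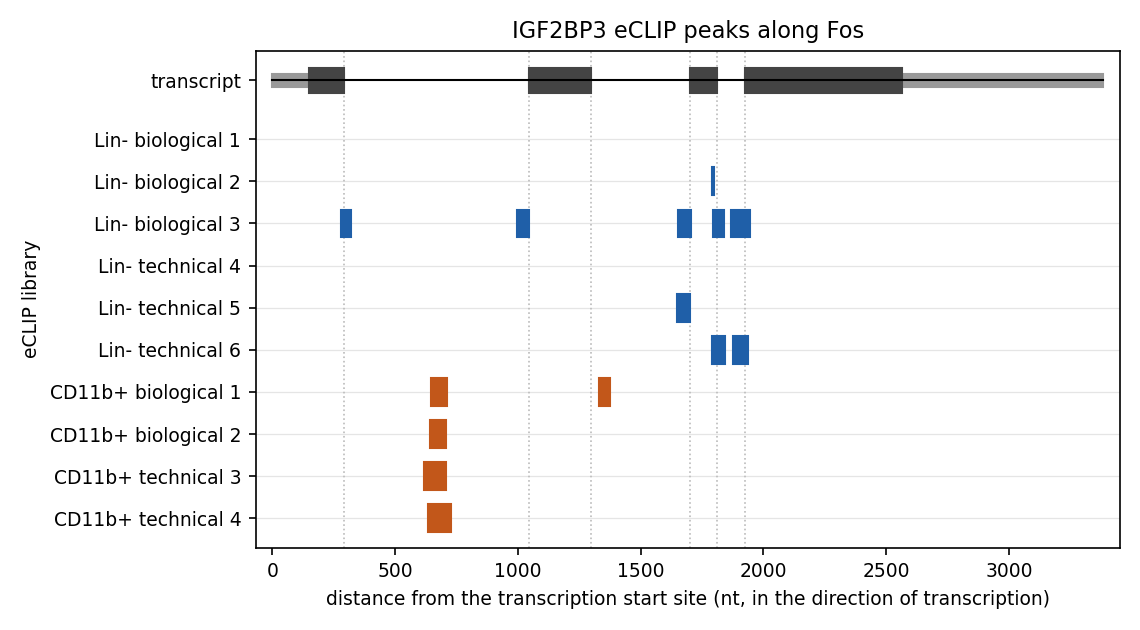
IGF2BP3 eCLIP peaks on Fos, as bars in 1 row per library, against the distance from the transcription start site in nt (Lin- blue, CD11b+ orange). In the transcript row, dark boxes are coding, gray boxes UTR and the line intron, and dotted lines mark splice sites. The 4 CD11b+ libraries share a site inside intron 1, while 8 of 9 Lin- peaks lie across a dotted line.

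Jund, the Jun protein known for steady rather than induced expression (ENSMUSG00000071076, chr8:70698949-70700616, plus strand, a single exon), had the most peaks of the 10 genes. Lin- biological 2 held 8 peaks, biological 3 held 3 and technical 5 held 7, while the other 3 Lin- libraries held 0. All but 1 of these 18 peaks were in the coding sequence of 1023 nt. Peaks covered 39.9% of the coding bases in biological 2, 14.9% in biological 3 and 45.3% in technical 5. The strongest was chr8:70699090-70699198 in Lin- biological 2 (CLIPper 5.18e-20), which overlapped chr8:70699080-70699190 of biological 3 (CLIPper 4.95e-12) and chr8:70699141-70699185 of technical 5 (CLIPper 3.1e-05). This GC-rich stretch was the one Jund site in all 3 of these libraries. Several peaks touch, such as chr8:70699199-70699244 that follows the strongest one, so the number of peaks partly counts how the caller divided a covered region.

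The other coding sites of Jund came from Lin- biological 2 and technical 5 together or from 1 library. Those libraries shared chr8:70699824-70699892, in the coding sequence of the DNA-binding basic region, with a CLIPper value of 3.12e-09 in biological 2 and 2.25e-06 in the wider peak of technical 5. These 2 libraries have the same last digit in their names. They also shared the leucine zipper stretch at chr8:70699927-70699998, with CLIPper values of 9.39e-08 and 6.4e-09 for the strongest peak of each library there. In the 3′ UTR, Lin- biological 3 had a peak at chr8:70700400-70700429 (CLIPper 0.00763). This peak overlapped the sole Jund peak of CD11b+ cells, chr8:70700415-70700448 in biological 2 (CLIPper 0.0423), over 15 nt that read gtgtgtttccttgtg. Jund thus had coding sites in Lin- libraries and none in CD11b+ libraries.

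Junb, an AP-1 subunit that can oppose Jun and restrains myeloid growth in mice (ENSMUSG00000052837, chr8:84974484-84978718, minus strand), had 3, 1 and 3 peaks in Lin- biological 2, biological 3 and technical 5, and none in the other 7 libraries. A 5′ UTR site was found in all 3, as chr8:84978492-84978557 (CLIPper 2.25e-05), chr8:84978471-84978553 (CLIPper 8.39e-08) and chr8:84978494-84978578 (CLIPper 0.00102). The central 30 nt of the stretch they share are printed because they hold both GGAC and CA motifs (capitals), on the minus strand at chr8:84978509-84978538.
Junb 5′ UTR: cgaccGGACACcgggtcctgcCACAgccga

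The second shared Junb site was chr8:84977498-84977557 in Lin- biological 2 (CLIPper 7.51e-05) and chr8:84977495-84977551 in technical 5 (CLIPper 0.00033), in the coding sequence of the leucine zipper. It faces the Jund zipper site of the same libraries. The 72 nt of Jund at that site start at coding position 870, and their best ungapped match in Junb starts at coding position 879, with 49 of 72 bases (68.1%) identical. Both Junb peaks overlap that match, and both come from the same pair of libraries by last digit. In Jun the best match has 53 of 72 bases identical (73.6%), and no Jun peak overlaps it. For the basic region site of Jund, Jun and Junb matched 76.8% and 73.9% of 69 bases, and neither had a peak there. How the mapping treated reads that could fit more than 1 of these paralogs is not given in the sources used here.

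Jun, the founding AP-1 subunit (ENSMUSG00000052684, chr4:95049034-95052222, minus strand, a single exon), had 4 peaks in Lin- cells and none in CD11b+ cells. Lin- biological 2 had chr4:95051904-95051983 in the 5′ UTR (CLIPper 0.0139), biological 3 had chr4:95050635-95050680 in the coding sequence (CLIPper 0.00958), and technical 5 had chr4:95051182-95051242 in the coding sequence (CLIPper 0.0019) and chr4:95052002-95052078 in the 5′ UTR (CLIPper 0.0033). No site was found in a second library. Each value was in the weaker part of its library, with 61.5% to 78.6% of all peaks at or below it.

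Per 10000 peaks, Jund had 0, 7.97 and 3.45 in Lin- biological 1, 2 and 3 and 0 and 0.995 in CD11b+ biological 1 and 2. The difference in means was 3.31 per 10000 (p = 0.5, exact permutation test, two-sided), since Lin- biological 1 was at 0. Junb had 0, 2.99 and 1.15 in the Lin- libraries and 0 in both CD11b+ libraries, a difference of 1.38 (p = 0.4, same exact test). Jun had 0, 0.996 and 1.15 in the Lin- libraries and 0 in both CD11b+ libraries, a difference of 0.716 (p = 0.4, same exact test). All 3 Jun genes overlapped between the cell types in these values, because of the 0 in Lin- biological 1. With 3 libraries against 2, the smallest p that 10 splits can give is 0.1.

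The 2 libraries with the most peaks on the Jun family also had the highest share of coding peaks over all genes. Coding exons held 17.3% of the placed peaks in Lin- biological 2 and 18.5% in technical 5, 6.53% to 8.03% in the other 4 Lin- libraries, and 1.44% to 2.46% in the CD11b+ libraries. The part of this in the Jun family counts was not tested.

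**Figure D3:**
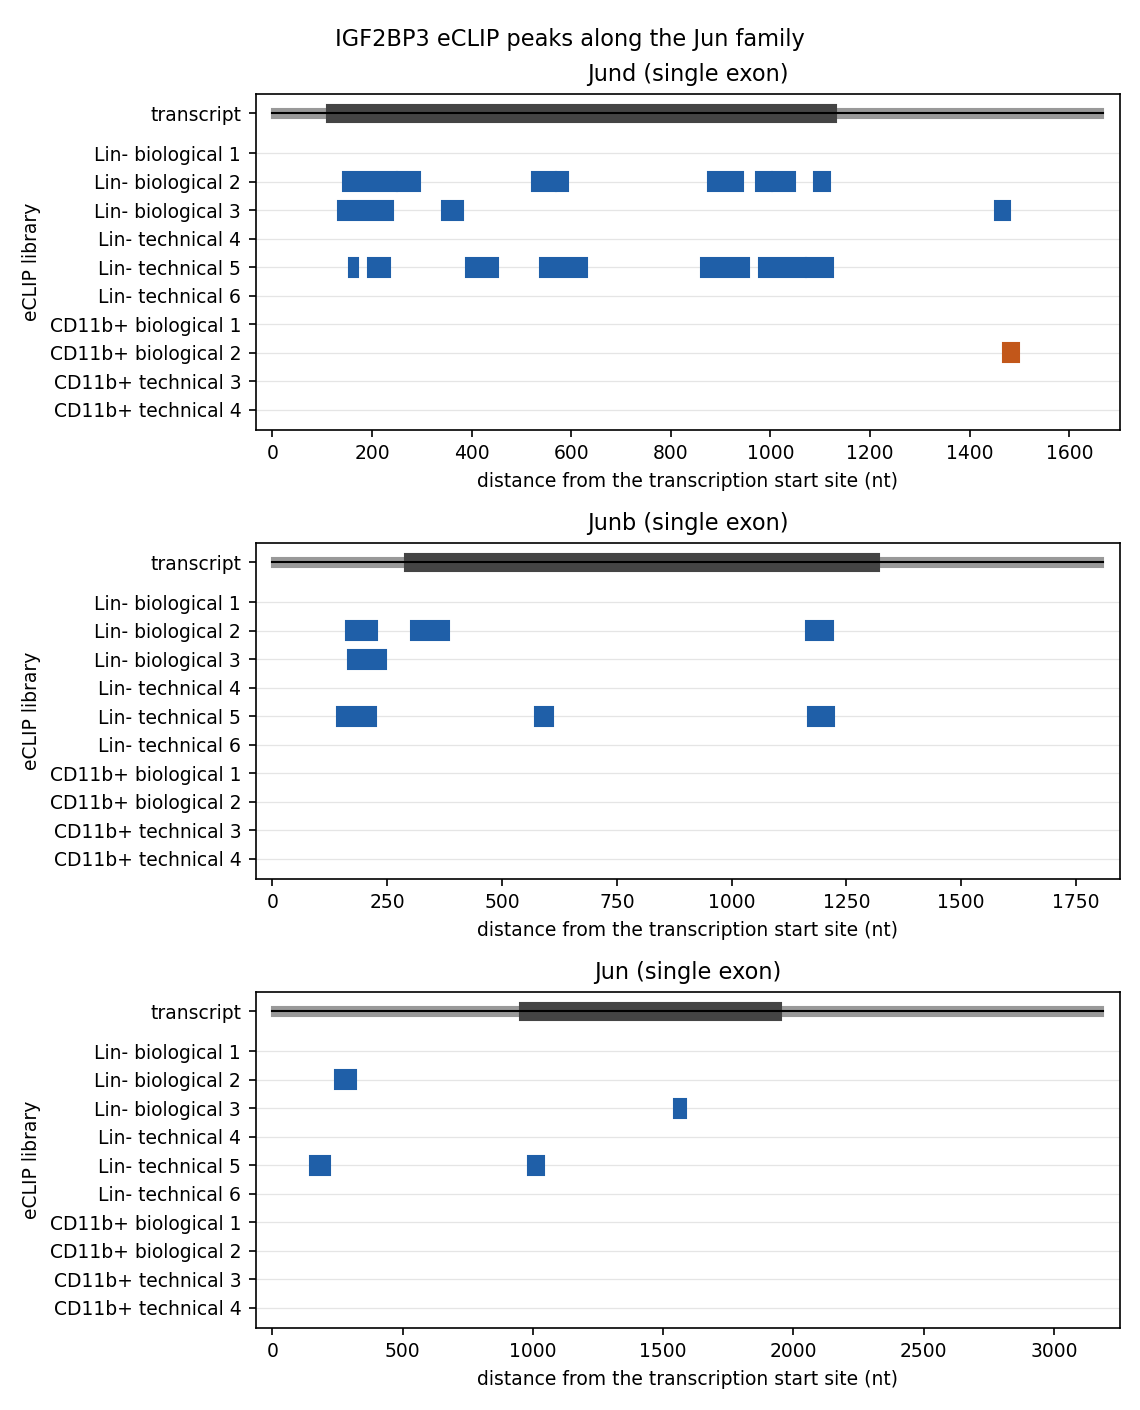
IGF2BP3 eCLIP peaks on Jund, Junb and Jun, as bars in 1 row per library, against the distance from the transcription start site in nt (Lin- blue, CD11b+ orange); in the transcript row, dark is coding and gray UTR. Jund is covered along its coding sequence in Lin- biological 2 and technical 5, and the sole CD11b+ peak of the 3 genes lies in the 3′ UTR of Jund.

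Dusp1, a phosphatase that switches off MAP kinases (ENSMUSG00000024190, chr17:26505590-26562128, minus strand), had 3 peaks in each cell type, none of which recurred within a cell type. Lin- biological 2 had chr17:26507543-26507587 (CLIPper 0.000795), over the start of intron 2, and chr17:26508315-26508372 (CLIPper 0.0232), centered in the 5′ UTR. Lin- biological 3 had chr17:26506645-26506682 over an edge of intron 3 (CLIPper 0.0315). CD11b+ biological 2 had chr17:26508407-26508463 in the 5′ UTR (CLIPper 0.0146), and technical 4 had chr17:26505770-26505814 in the 3′ UTR (CLIPper 0.0109) and chr17:26507530-26507579 over the start of intron 2 (CLIPper 0.0472). The start of intron 2 was thus the one splice site of these genes with a peak in both cell types, and the 37 nt shared there are printed above. It rests on 1 library of each cell type. In CD11b+ technical 4, 98.9% of all peaks had a value at or below that of this peak, and in Lin- biological 2, 55.5% did.

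Ier2, a small nuclear protein and early response gene (ENSMUSG00000053560, chr8:84661331-84662852, minus strand, a single exon), had a 3′ UTR site in 2 of 4 CD11b+ libraries. The peaks were chr8:84661641-84661705 in biological 1 (CLIPper 0.035) and chr8:84661656-84661709 in technical 3 (CLIPper 0.0156). These 2 libraries have the same last digit too. The central 30 nt of their overlap hold GGAC (capitals), at chr8:84661666-84661695 on the minus strand. In Lin- cells, biological 2 had a 5′ UTR peak of 22 nt (CLIPper 0.0152) and technical 5 a coding peak of 4 nt (CLIPper 0.0227), and neither site recurred.
Ier2 3′ UTR: gaggaggccagggtgtGGACccgccctagg

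The differences between cell types were small against the spread for these genes too. Dusp1 had 0, 1.99 and 1.15 peaks per 10000 in Lin- biological 1, 2 and 3 and 0 and 0.995 in CD11b+ biological 1 and 2, a difference of 0.55 (p = 0.5, exact permutation test, two-sided). Ier2 had 0, 0.996 and 0 in Lin- and 1.17 and 0 in CD11b+ libraries, with a Lin- minus CD11b+ difference of -0.25 (p = 0.7, same exact test). After Benjamini-Hochberg adjustment over the 7 genes with a peak in a biological library, the exact permutation p-values were 0.7 to 0.9.

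Merged over libraries, the genes had 28 sites in Lin- and 9 in CD11b+ cells. By its center, a Lin- site was in a coding exon in 14 cases, in a 5′ UTR in 6, in a 3′ UTR in 1 and in an intron in 7. The CD11b+ sites were in a 5′ UTR in 2 cases, in a 3′ UTR in 3 and in an intron in 4, with none in coding sequence. Over all merged peaks, introns held 77.4% in Lin- and 83.3% in CD11b+ cells, and coding exons held 8.12% and 2.02%. Exons thus held 75.0% of the Lin- sites of these genes against 21.5% over all genes, and 55.6% against 15.2% in CD11b+ cells. Jun, Junb, Jund and Ier2 have no intron, so their sites could lie in exons alone. Without Jund, which gave 9 of the 28 sites, the exon share in Lin- cells was 63.2%. On the members with an intron that had sites, namely Fos, Dusp1 and Egr1, 2 of 9 Lin- sites (22.2%) and 3 of 7 CD11b+ sites (42.9%) were in exons, against 17.3% and 12.5% of all merged peaks on genes with an intron. The high exon share of the Lin- sites was thus not seen on genes that have introns. By any overlap in place of the center, all 28 Lin- sites touched an exon, against 63.0% of all merged Lin- peaks.

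Of the 28 Lin- sites, 3 (10.7%) overlapped a CD11b+ site, and 3 of 9 CD11b+ sites (33.3%) overlapped a Lin- site. Over all genes, these shares were 25.1% and 29.7%. The shared sites were the 3′ UTR site of Jund, the start of intron 2 of Dusp1 and a 5′ UTR site of Egr1.

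CA-rich elements, here ACACAC or CACACA on the strand of the gene, were in 1 of 28 Lin- sites (3.57%) and 1 of 9 CD11b+ sites (11.1%), both on Fos. Over all merged peaks, the shares were 8.35% and 17.0%. The shorter CACA or ACAC, each of which the longer words contain, was in 10 of 28 Lin- sites (35.7%) and 1 of 9 CD11b+ sites, against 25.7% and 26.6%. GGAC was in 5 of 28 and 2 of 9, against 11.2% and 9.98%, and the AU-rich pentamer ATTTA was in none of either, against 2.8% and 2.06%. Median lengths were 57 and 45 nt for the sites of these genes and 51 and 54 nt for all merged peaks. These shares rest on at most 10 sites with a motif and were not tested.

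By mean normalized count, Jund (2409) led in Lin- cells, followed by Ier2 (1582), Junb (1382) and Jun (917). Atf3 (385), a stress-induced repressor of the ATF family, Fos (316), Egr1 (215) and Dusp1 (136) were in the middle, and Fosb (19.9) and Egr2 (18.2) were at the low end. In CD11b+ cells, Ier2 (2212) led, followed by Junb (1745), Jund (1096), Egr1 (927), Fos (498), Dusp1 (379) and Jun (198). Fosb (24.1), Egr2 (21.7) and Atf3 (8.19) were lowest. These means grow with transcript length, and per kb of exon Ier2 stood at 1039 and Jund at 1445 in Lin- cells. Because they pool 2 genotypes with no error, it could not be said which neighbors in this order differ.

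The tables were normalized separately, so levels were set side by side as percentiles within a cell type. Atf3 was at percentile 64.7 in Lin- and 35.7 in CD11b+ cells, and Jun at 74.9 and 61.2. Egr1 stood the other way, at percentile 59.8 in Lin- and 81.6 in CD11b+ cells, as did Dusp1 at 56.4 and 68.7. Fosb and Egr2, both without peaks, were at percentiles 42.1 to 44.8 in both. The median of the 10 genes was 63.8 in Lin- and 70.6 in CD11b+ cells. Junb was at percentile 89.8 in CD11b+ cells with no peak, so a high level did not always come with a peak. Atf3 had no peak in Lin- cells at a mean above that of Fos. Among genes with a mean of at least 10, Atf3 was at percentile 43.8 there. Lacking a peak was common, since 51.9% of genes with a mean of at least 100 had one in Lin- and 47.9% in CD11b+ cells.

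**Figure D4:**
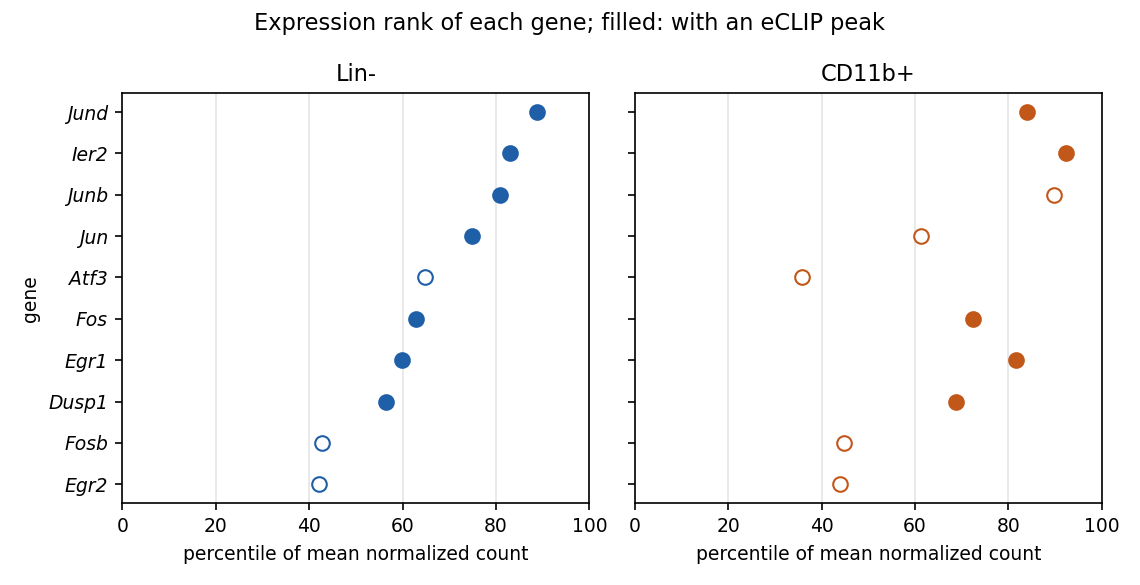
Percentile of the mean normalized count among all genes listed (horizontal axis, 0 to 100) for each gene (vertical axis, ordered by Lin- level) in Lin- (left) and CD11b+ cells (right). Filled points have an eCLIP peak in that cell type and open points have none; the open points include Atf3 at 64.7 in Lin- cells and Junb at 89.8 in CD11b+ cells.

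Egr1, a zinc finger factor of monocyte and macrophage differentiation (ENSMUSG00000038418, chr18:34859823-34864984, plus strand), had 2 peaks in CD11b+ biological 2 and 1 in Lin- technical 5. The stronger CD11b+ peak, chr18:34862059-34862097, was in intron 1 and 272 nt from a splice site (CLIPper 1.99e-05). The other, of 7 nt in the 5′ UTR (CLIPper 0.0248), lay inside the Lin- peak chr18:34861209-34861277 (CLIPper 0.00124). In the biological libraries, Egr1 had 0 peaks per 10000 in all 3 of Lin- cells, and 0 and 1.99 in CD11b+ cells (p = 0.4, exact permutation test, two-sided). Egr2, its relative (chr10:67535475-67542188), Fosb (chr7:19302696-19310051) and Atf3 (chr1:191170296-191218039) had none at all.

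Of 45 other genes of the same response, among them further AP-1, ATF and Maf factors, Nr4a and Klf factors, mRNA decay factors of the Zfp36 family, Dusp phosphatases and ternary complex factors, 44 were listed in each table. Peaks were found on 28 of 44 in Lin- cells (63.6%) and on 24 of 44 in CD11b+ cells (54.5%), and on 20 in both. The shares were 26.5% and 25.6% over all genes listed, and 51.9% and 47.9% over genes with a mean normalized count of at least 100. The median percentile of the 44 was 72.6 in Lin- and 72.9 in CD11b+ cells. Whether their share of genes with a peak goes beyond their level was not tested. Zfp36l2, which promotes decay of AU-rich mRNAs, had 16 merged sites in Lin- and 8 in CD11b+ cells. At least 1 of its Lin- sites was found in all 6 Lin- libraries. Atf4, the factor of the integrated stress response, had 7 in Lin- cells, and Nfkbia, the inhibitor of NF-kappaB, had 6. In CD11b+ cells, Mafg, a small Maf protein, had 9 and Btg1, an antiproliferative gene, had 6. The AP-1 gene Fosl2 also had 6 there, with at least 1 site found in all 4 libraries. It came after Btg1 by its lower mean normalized count (2068 against 2219). The mean normalized count of Zfp36l2 was 20490 in Lin- and 8352 in CD11b+ cells, above that of any of the 10 genes in either.

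Genes with peaks in the same set of libraries were few beside the 8963 with any peak. For Fos, with peaks in 8 libraries, 56 other genes shared the exact set, and the nearest in Lin- mean count were Gfra1, Slc22a15, Agbl4, Oas2 and Pdgfb. Jun and Junb had the same 3 libraries, which 43 genes shared. The nearest in level were Acbd5, Zfp512b, Ska2 and Tmem64 for Jun, and Klhl26, Bax, Rell1, Gk and Rab24 for Junb. Jund shared its 4 libraries with 9 genes, of which Wdr81 and Slc25a36 were nearest. Ier2 shared its 4 with 11 genes, among them Rhob, and Dusp1 and Egr1 shared theirs with 13 and 14.

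The cell types were checked against their markers. The progenitor markers were not all lower in CD11b+ cells. Kit, Cd34 and Flt3 stood at percentiles 97.4, 98.3 and 98.4 of the mean normalized count in Lin- cells and 76.6, 86.2 and 69.1 in CD11b+ cells. The granule genes Mpo, Elane and Ctsg stood at percentiles 99.99, 99.3 and 99.2 in Lin- cells and 99.99, 99.9 and 99.6 in CD11b+ cells. Lyz2 and Csf1r were high in both cell types, at percentiles 99.98 and 99.5 in CD11b+ cells and 99.7 and 97.9 in Lin- cells. Itgam, which encodes CD11b itself, had a mean normalized count of 17.0 in CD11b+ cells (percentile 41.8). In CD11b+ cells, the B cell markers Ms4a1 and Cd79a stood at percentiles 52.6 and 58.3 and the hemoglobin gene Hba-a1 at 85.9. In Lin- cells these genes stood at percentiles 15.5, 32.3 and 32.5. The platelet genes Pf4 and Itga2b stood at percentiles 64.9 and 85.9 in Lin- and 20.9 and 49.3 in CD11b+ cells. The part of such cells in the levels above was not tested, and in bulk RNA fewer cells of a type and less RNA per cell cannot be told apart.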

How the data were processed

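RNA-seq reads were single-end and strand-specific. The submitters' processing notes name mm10, STAR 2.5.3a, Bowtie2 and DESeq2. In 1 table for each cell type, the authors deposited the mean normalized count of a gene, a signal of reads scaled by library size factors and averaged over both genotypes, and these values were used here. The tables also hold the authors' comparison of I3KO with WT (log2 fold change, standard error, statistic, p, adjusted p and marks of bound genes), which was not used. Per-library counts were not used here. For eCLIP, the authors deposited CLIPper peaks per library, before and after removal of peaks overlapping smInput peaks. Per the file headers, eCLIP and input libraries differed in deduplication and peak calling settings. Beside each peak stands an unlabeled number that never exceeds 0.05. It was taken to be the p from CLIPper.

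Overlapping peaks on 1 strand were joined over the libraries of a cell type and placed by their center in GENCODE M21 (coordinates from 1). Peaks per 10000 in 3 Lin- and 2 CD11b+ biological libraries were compared by exact permutation with Benjamini-Hochberg adjustment. If libraries are not from separate mice, the p-values measure technical spread only. A splice site counted as crossed where a peak held bases on both its sides. Named genes were the 10 members, the 3 of 45 companions with most merged sites in each cell type (ties by the higher mean count), and up to 5 genes with peaks in the same libraries and the nearest mean count (ties between cell types took Lin-). A few of the named genes and markers are not reported here. The members and lists were chosen with earlier results of these data known. Python 3.11.15, pandas 2.3.3, NumPy 2.4.6, SciPy 1.17.1, pysam 0.24.0 and matplotlib 3.10.9 were used. Alternatives covered the libraries used, the smInput filter, a CLIPper p below 0.001, merging, placing, motif words and level filters. Merging was tested on simulated peaks and permutation on small sets of numbers. Placing was tested on positions taken from the annotation itself.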

Additional observations from a re-analysis of the deposited data

How the results depend on the processing

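Of 103 values recomputed under alternatives, 7 belonged to alternatives chosen after seeing the data. The number of genes with a peak fell from 7 to 4 in Lin- and from 5 to 2 in CD11b+ cells when the CLIPper p had to be below 0.001, and merged sites fell from 28 to 15 and from 9 to 3. One gene, Fos, had a peak in at least 2 CD11b+ biological libraries, and 5 genes had one in at least 2 Lin- biological libraries. The shares of all genes under these stricter rules were not counted, so the drops cannot be called particular to these genes. Leaving out Lin- biological 2 and technical 5 left 11 of the 28 Lin- sites. Leaving out 1 biological library, with the technical ones left out too, gave 5 to 6 genes and 11 to 24 sites in Lin- cells, and 2 to 4 genes and 3 to 5 sites in CD11b+ cells. The lowest values came without Lin- biological 2 (11 sites) and without CD11b+ biological 2 (2 genes, 3 sites). By any overlap, 100% of Lin- sites touched an exon. By center, 22.2% of the Lin- sites on genes with an intron were in exons. CACA or ACAC raised the Lin- motif share from 3.57% to 35.7%. Among genes with a mean of at least 10, the median percentile in Lin- cells was 42.3.

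With the replicate block, the mean of the differences between same-numbered libraries 1 and 2, the Fos difference turned from 0.58 to -1.17 per 10000. The numbers mark no shared source, so the samples share only a number. Leaving out 1 library, the Fos difference ran from -1.17 (without Lin- biological 3) to 1.71, with -0.10 without CD11b+ biological 2. That of Ier2 ran from -0.84 to 0.33, the latter without CD11b+ biological 1. With technical libraries included, the Dusp1 difference was -0.43 against 0.55. The other differences kept their sign or came to 0. None of the differences was past the threshold, which 10 splits cannot reach. As read depth is not known, genes that lack peaks may still be bound.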
